A study of Mus musculus with 6 samples.

Results

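Fc receptors bind the constant part of antibodies, and this account covers 10 mouse genes for such receptors and their structural relatives: Fcer2a, Fcmr, Fcgr1, Fcgr3, Fcer1g, Fcgr2b, Fcrl1, Fcrl5, Fcrla and Fcgrt. They were looked for among 34760 probe sets (groups of array probes that together report 1 transcript) by taking those annotated with exactly 1 gene symbol, that of a listed gene. A single such probe set was found for 9 of the 10 genes, among 19937 genes measured in this way. Fcgrt, the gene of the neonatal IgG transport receptor, was not matched and is not analysed here. The cells were of the mouse line 230-238, which the labels call a B-cell line. They were infected with a plasmid for GFP, a green fluorescent protein, in the control group (GFP, 3 arrays), or with a plasmid for GFP together with FOG1 (GFP+FOG1, 3 arrays). Both plasmids therefore carried GFP. Cells of both groups were cultured for 3 days, sorted for green fluorescence and cultured for 4 more days before RNA was taken. FOG1, the product of Zfpm1, is a zinc finger cofactor through which GATA transcription factors activate or repress genes in blood cells, and the comparison asks which transcripts differ when a B-cell line is given it. The labels do not say whether the infected cells were clones, which promoter drove FOG1 or whether the 3 replicates of a group, which they call biological, came from separate infections. The p-values cover the spread among these samples.

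Antibody receptors differ in the antibody class they bind and in the signal they send. Activating receptors such as Fcgr1 and Fcgr3 depend on the small chain Fcer1g, whose tail holds an immunoreceptor tyrosine-based activation motif (ITAM) that recruits the kinase Syk. Fcgr2b instead carries an inhibitory motif (ITIM) that recruits the lipid phosphatase Inpp5d, and it is the IgG receptor known from B cells, where it dampens the B-cell receptor. Fcer2a (CD23) is a C-type lectin that binds IgE and marks follicular B cells, and Fcmr is the IgM receptor of B cells. The Fc receptor-like genes Fcrl1, Fcrl5 and Fcrla are relatives expressed mainly in the B lineage.

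Promoter sequences from RefSeq (assembly GRCm38.p6) were found for all 10 genes, as 13 windows that run from 250 bases before a transcription start to 50 after it. GATA factors bind sites built on the letters GATA, and STAT6, through which interleukin 4 induces Fcer2a in B cells, binds TTC and GAA separated by 4 bases. The 4 stretches before the start that are shown belong to the IgE and IgM receptor genes, which had the smallest p among the members, to the signalling chain gene, whose arrays differed in the other direction, and to Fcrl1, a member with GATA letters on both sides of its start. Of the 3 Fcer2a starts the second is shown, the only Fcer2a start whose window holds that STAT6 motif. All stretches are written 5′ to 3′ along the gene. Capitals mark GATA or its reverse complement TATC, extended where they are part of AGATAA or TGATAA on either strand, and the STAT6 motif.
Fcer2a, the second of 3 listed starts, chr8:3690862-3691111, minus strand: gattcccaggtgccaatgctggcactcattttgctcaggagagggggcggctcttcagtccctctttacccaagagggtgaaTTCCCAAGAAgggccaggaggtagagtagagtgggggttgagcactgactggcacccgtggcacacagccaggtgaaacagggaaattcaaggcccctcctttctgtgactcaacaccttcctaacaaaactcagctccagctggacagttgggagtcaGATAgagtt
Fcmr, chr1:130865527-130865776, plus strand: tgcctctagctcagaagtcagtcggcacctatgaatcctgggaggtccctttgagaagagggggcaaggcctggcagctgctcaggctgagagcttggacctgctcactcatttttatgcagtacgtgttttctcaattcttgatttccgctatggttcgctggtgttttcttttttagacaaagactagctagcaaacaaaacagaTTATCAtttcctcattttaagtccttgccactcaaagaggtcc
Fcer1g, chr1:171234350-171234599, minus strand: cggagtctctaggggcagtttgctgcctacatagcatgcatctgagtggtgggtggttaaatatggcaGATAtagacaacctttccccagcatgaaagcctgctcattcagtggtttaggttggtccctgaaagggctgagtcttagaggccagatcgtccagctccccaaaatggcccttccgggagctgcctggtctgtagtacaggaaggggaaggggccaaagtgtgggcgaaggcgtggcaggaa
Fcrl1, chr3:87376137-87376386, plus strand: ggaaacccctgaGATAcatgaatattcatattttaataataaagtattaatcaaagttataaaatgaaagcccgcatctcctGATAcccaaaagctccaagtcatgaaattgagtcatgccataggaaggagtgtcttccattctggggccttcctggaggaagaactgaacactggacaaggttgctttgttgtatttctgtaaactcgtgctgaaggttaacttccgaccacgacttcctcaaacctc

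Over the whole 300-base windows, GATA on either strand was in 11 of the 13 member windows, which stand for 8 of the 10 genes, and in 57.9% of 32851 windows of this length. Fcrl5 and Fcrla had none. The longer AGATAA or TGATAA, which contain GATA, were in 2 of 13 windows, against 18.6% of all windows. In Fcmr the match TTATCA began at position -43 from the start, and in Fcrl1 the match TTATCT began at position 18 after it, outside the printed stretch. The STAT6 motif was in 1 member window, as TTCCCAAGAA from position -168 of the printed Fcer2a stretch, and in 6.95% of all windows. The 3 Fcer2a windows come from separate starts, and the 2 Fcgr3 windows overlap over nearly their whole length. These are matches of letters, and binding was not measured here.

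The values are log2 signals, so a difference of 1 is a doubling, and a gene called changed needed an adjusted p under 0.05 (limma with Benjamini-Hochberg over all probe sets). None of the 9 measured members passed, where 0.224% of all probe sets did. At an unadjusted p under 0.05 there were 6 of 9 (Fcer2a, Fcmr, Fcer1g, Fcgr2b, Fcrl1 and Fcgr3), against 12.5% of all probe sets. The 2 groups of arrays did not overlap for 6 of 9 members, while 19.6% of all probe sets did not. Of these, 5 members were lower and 1 higher with FOG1, against 10.5% lower and 9.13% higher of all probe sets. The members' median log2 change was -0.17, and that of all probe sets -0.01. The members were chosen with earlier results of these data known, so these shares describe them and are no test.

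**Figure D1:**
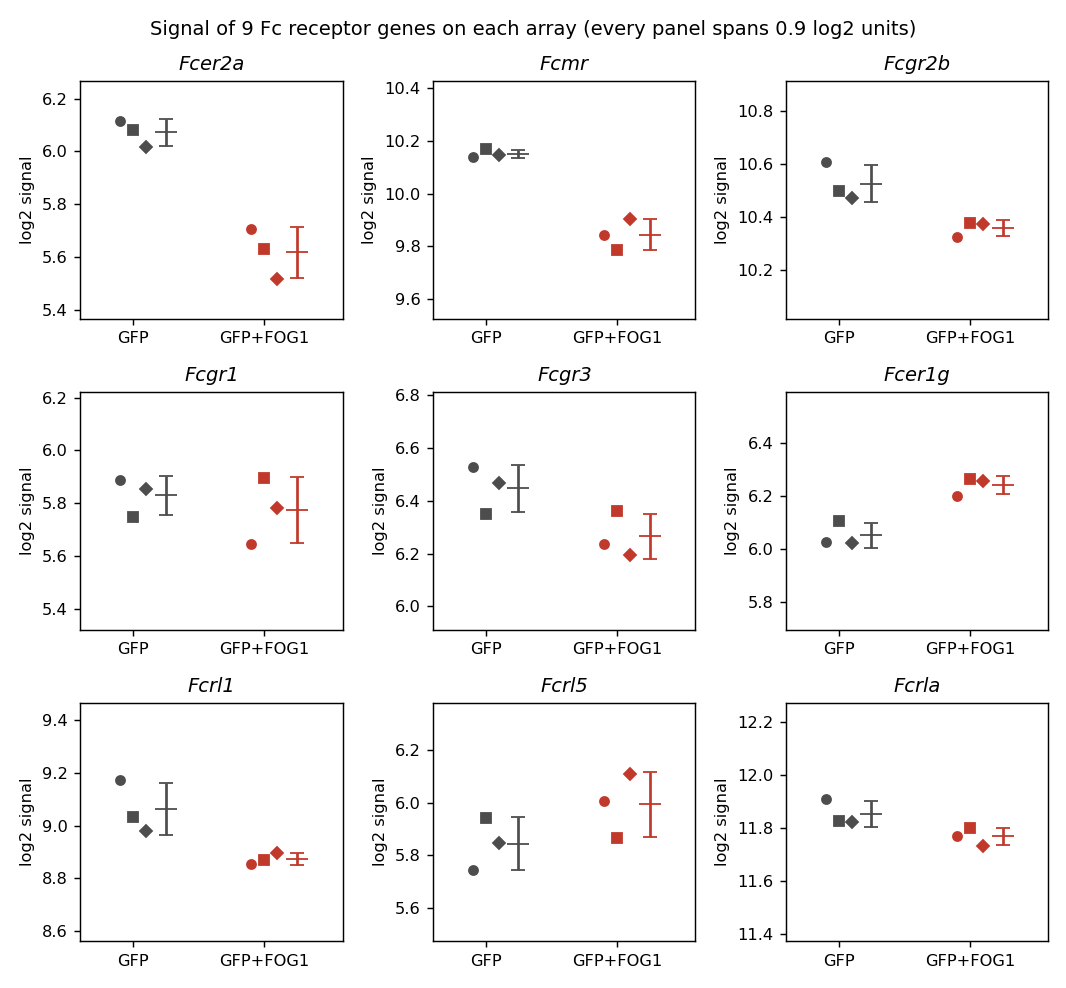
Log2 signal (vertical axis) of the 9 measured Fc receptor genes on each GFP array (grey) and GFP+FOG1 array (red), with the mean and SD of 3 arrays beside the points; circles, squares and diamonds are replicates 1, 2 and 3. Every panel spans the same 0.9 log2 units; Fcer2a lay at 6.02 to 6.12 on the GFP arrays and at 5.52 to 5.71 on the FOG1 arrays, the widest separation shown.

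Fcer2a, the low-affinity IgE receptor gene, had the largest difference among the members. Its signal was 6.12, 6.08 and 6.02 on the GFP arrays and 5.71, 5.63 and 5.52 on the GFP+FOG1 arrays, so every FOG1 array lay below every GFP array. The group means were 6.07 ± 0.05 and 5.62 ± 0.10 (SD, n = 3 each), a log2 change of -0.45 or a 1.37-fold lower signal with FOG1 (SE 0.063, 95% interval -0.61 to -0.30; limma adjusted p = 0.076). This signal lay at percentile 32.0 of all probe sets in GFP cells, below the median of all values, where part of a signal can be background and a change can be understated. The monocyte marker Cd14 and the neutrophil marker Mpo lay at like levels, at percentiles 32.0 and 33.5. Whether Fcer2a was expressed above background was not tested. The adjusted p was 0.028 when the 21640 probe sets with 1 symbol were tested alone, with the same log2 change. It lay between 0.064 and 0.27 in the other 12 alternatives.

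Fcmr, the IgM receptor gene, was measured at a high signal, at percentile 90.4 in GFP cells. Its values were 10.14, 10.17 and 10.15 on the GFP arrays and 9.84, 9.79 and 9.90 on the GFP+FOG1 arrays. All 3 FOG1 arrays were below all 3 GFP arrays, with GFP and FOG1 means of 10.15 ± 0.01 and 9.84 ± 0.06 (SD, n = 3 each). The log2 change was -0.31, a 1.24-fold lower signal (SE 0.048, 95% interval -0.42 to -0.19; limma adjusted p = 0.11). It passed in 2 of 14 alternatives, with an adjusted p of 0.048 among 1-symbol probe sets alone and 0.044 with a variance trend and robust estimation. In the other 12 it lay between 0.051 and 0.32.

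Fcgr2b, the inhibitory IgG receptor gene, was another bright member, at percentile 93.0. It stood at 10.61, 10.50 and 10.47 on the GFP arrays and at 10.32, 10.38 and 10.37 on the GFP+FOG1 arrays. The groups did not overlap, and GFP replicate 1 was the highest. The log2 change was -0.17 (95% interval -0.30 to -0.04; limma adjusted p = 0.31).

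The activating IgG receptor genes, known from macrophages and other myeloid cells, were dim. Fcgr3, the gene of the low-affinity receptor CD16, had values of 6.53, 6.35 and 6.47 on the GFP arrays and 6.24, 6.36 and 6.20 on the GFP+FOG1 arrays. FOG1 replicate 2 lay above GFP replicate 2, so the groups overlapped, and the log2 change was -0.18 (95% interval -0.35 to -0.02; limma adjusted p = 0.36). Fcgr2b and Fcgr3 have closely similar extracellular parts, and whether their probes tell them apart was not tested. Fcgr1, the gene of the high-affinity receptor CD64, had values of 5.89, 5.75 and 5.85 against 5.64, 5.90 and 5.78. The groups overlapped, with FOG1 arrays both highest and lowest, and the log2 change was -0.06 (95% interval -0.24 to 0.13; limma adjusted p = 0.79). Without FOG1 replicate 1 the change of Fcgr1 turned to 0.01.

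Fcer1g, the ITAM-bearing chain that these receptors share, was the 1 member with non-overlapping groups that was higher with FOG1. Its values were 6.02, 6.11 and 6.02 on the GFP arrays and 6.20, 6.26 and 6.26 on the GFP+FOG1 arrays. The log2 change was 0.19, or 1.14-fold (95% interval 0.08 to 0.30; limma adjusted p = 0.24). The signal was dim, at percentile 31.7 in GFP cells. The change was positive in all 13 alternatives run for it, from 0.18 to 0.22.

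Among the Fc receptor-like genes, Fcrl1, which encodes a B-cell surface receptor, lay at 9.17, 9.03 and 8.98 on the GFP arrays and at 8.86, 8.87 and 8.90 on the GFP+FOG1 arrays. The groups did not overlap, with a gap narrower than the spread of the GFP arrays, and the log2 change was -0.19 (95% interval -0.33 to -0.04; limma adjusted p = 0.32). Fcrla, which encodes an intracellular relative found in B cells, had a signal at percentile 98.2 in GFP cells. Its values were 11.91, 11.83 and 11.82 against 11.77, 11.80 and 11.73, a log2 change of -0.08 (95% interval -0.20 to 0.03; limma adjusted p = 0.50). Fcrl5, a receptor known from marginal zone and B-1 cells, was dim, at 5.74, 5.94 and 5.85 against 6.01, 5.87 and 6.11. Its groups overlapped and its log2 change was 0.15 (95% interval -0.05 to 0.34; limma adjusted p = 0.49).

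**Figure D2:**
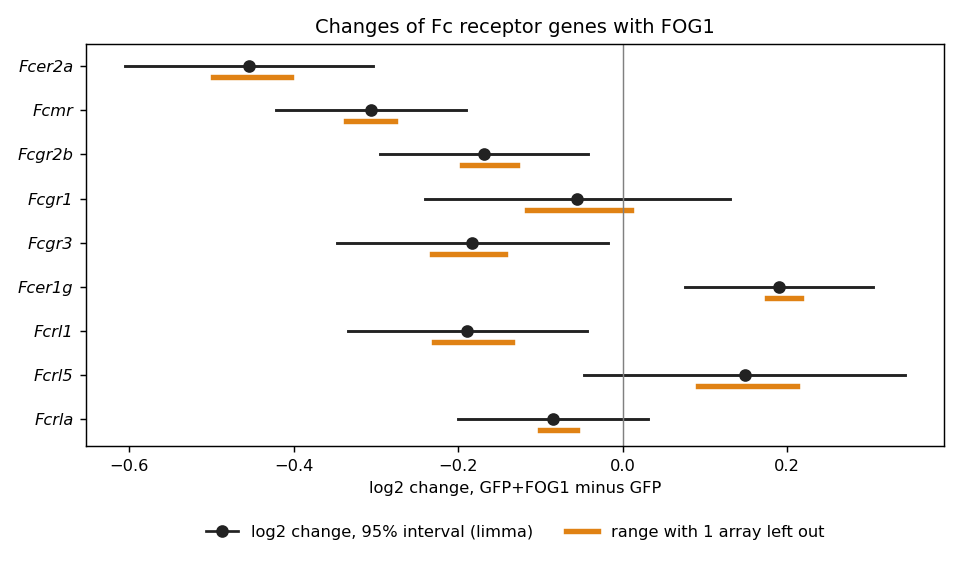
Log2 change (horizontal axis, GFP+FOG1 minus GFP) of each of the 9 genes, with the 95% interval of the limma fit (black) and the range of the change when each of the 6 arrays was left out in turn (orange). The intervals of Fcer2a (-0.61 to -0.30) and Fcmr (-0.42 to -0.19) lie farthest from 0, those of Fcgr1, Fcrl5 and Fcrla cross 0, and the range of Fcgr1 with 1 array left out reaches from -0.12 to 0.01.

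The members with a signal at or above the median of all values were 4, namely Fcmr, Fcgr2b, Fcrl1 and Fcrla. All 4 had negative log2 changes, from -0.31 to -0.08, with groups that did not overlap. Of all 34760 probe sets, 18716 had negative changes, and 10.5% had groups that did not overlap and were lower with FOG1. These shares were not computed for bright probe sets alone. The 5 dim members ran from -0.45 (Fcer2a) to 0.19 (Fcer1g), with 2 positive and 3 negative. FOG1 replicate 1 lay nearest to the GFP arrays on the first principal component of all probe sets, at 1.16 against 16.98 and 24.3 for the other FOG1 arrays and -16.1 to -11.4 for the GFP arrays. Without it, Fcer2a was at -0.50 and Fcmr at -0.31 (limma adjusted p = 0.10 and 0.15). The count of members at an unadjusted p under 0.05 was then 3 of 9, and it was 5 to 7 without any other array. Over all 34760 probe sets the same count went the other way. It was 5380 without FOG1 replicate 1, 3013 to 3879 without any other array and 4342 with all arrays.

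Over all arrays, values ran from 3.12 to 14.07 with array medians of 6.98 to 7.04, and pairs of arrays correlated at 0.993 to 0.996. Zfpm1 itself was 1.67-fold higher in the FOG1 group (limma adjusted p = 0.0038), with groups that did not overlap. Its mean signal was 9.44 in GFP cells, already at percentile 83.8, and 10.18 with FOG1. The B-cell label was checked against markers. Of 14 measured early B-cell markers, 13 were at or above the median signal. Of 10 markers each of neutrophils, of mast cells and basophils, and of NK and T cells, 0, 0 and 1 were.

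Monocyte and macrophage markers were examined because Fcgr1, Fcgr3 and Fcer1g are known from those cells. Of the 12 measured of 14, 4 reached the median signal (Cd68, Itgam, Cx3cr1 and Cebpa), while Lyz2, Csf1r, Adgre1, Ccr2, C1qa and Cd14 were among those below it. Itgam, the alpha M integrin chain, was the 1 marker that passed the threshold, with a log2 change of -1.11 (limma adjusted p = 0.0075). The list's mean log2 signal was 6.54 to 6.57 on the GFP arrays and 6.35 to 6.44 on the GFP+FOG1 arrays, and its summed signal was 10.80 to 10.92 and 10.63 to 10.69 on the log2 scale. The list's mean log2 change was -0.16, its median -0.07. Without Itgam, an alternative chosen after seeing the data, the mean change of the other 11 was -0.07, and both measures overlapped between the groups (mean signal 6.40 to 6.44 on the GFP arrays and 6.30 to 6.40 on the FOG1 arrays, summed signal 10.55 to 10.70 and 10.52 to 10.59). The part of these levels in the values of Fcgr3 and Fcer1g was not tested. In bulk RNA, fewer cells of a type and less RNA per cell cannot be told apart.

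B-cell markers were examined beside Fcer2a and Fcmr, which are known from mature B cells. Of the mature B-cell markers, 10 of 12 listed were measured, 6 had negative log2 changes and none passed, with a median of -0.12. Ms4a1, the gene of CD20, was at -0.34, Bank1, a B-cell adaptor, at -0.30 and S1pr1, a receptor for lymphocyte exit from tissues, at -0.29 (limma adjusted p = 0.16, 0.18 and 0.34). The 4 with positive changes were Cr2 at 0.08, Tnfrsf13c at 0.07, Cd37 at 0.03 and Cd22 at 0.01. The mean log2 signal of the list was 9.72 to 9.81 on the GFP arrays and 9.63 to 9.68 on the GFP+FOG1 arrays, without overlap, while its summed signal overlapped, at 14.01 to 14.07 and 13.97 to 14.05 on the log2 scale. Early B-cell markers had a median of -0.00024 and 7 changes of each sign. Groups did not overlap for 4 of the 14, against 19.6% of all probe sets. Of the 4, 2 were lower with FOG1 (Cd79a and Cd79b). The 2 higher were Il7r at 0.20 and Rag2 at 0.23 (limma adjusted p = 0.21 and 0.33). The mean signal of the early list overlapped (10.85 to 10.91 and 10.84 to 10.89). Its summed signal was lower on the FOG1 arrays (15.75 to 15.78 and 15.67 to 15.72), so which list separated the groups depended on the measure. A sum weighs bright genes most. Of these, Cd79a was at -0.41 and Cd79b at -0.16, while Igll1 was at -0.01 and Cd24a at 0.04. The sum without Cd79a and Cd79b was not computed. Whether these levels bear on the Fcer2a and Fcmr values was not tested.

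Other Fc receptor genes outside the 10 were mostly dim, with 1 of 9 at or above the median signal. None of the 9 passed, and their median log2 change was -0.02, with 6 negative and 3 positive. Fcrl6, another Fc receptor-like gene, had the smallest p, at -0.31 (limma adjusted p = 0.24). Ms4a2, the beta chain of the high-affinity IgE receptor, was at -0.13, and Fcgr4, an activating IgG receptor gene next to Fcgr3, was at -0.12 (adjusted p = 0.43 each). Fcer1a, the chain of that receptor that binds IgE, was at -0.02.

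Of 8 measured genes for partner chains and sheddases, none passed and the median was -0.05. Cd79a, an ITAM-bearing chain of the B-cell receptor that Fcgr2b restrains, was at -0.41, from 13.09 ± 0.01 to 12.69 ± 0.09, with an adjusted p of 0.088 (limma). It did pass without dim probe sets (0.043), among 1-symbol probe sets alone (0.036) and with a variance trend (0.027). Its partner Cd79b was at -0.16 and the ITAM chain gene Cd247 at -0.17 (limma adjusted p = 0.25 and 0.34). Adam10, the protease that sheds CD23 from the cell, was at 0.15 (adjusted p = 0.37), and Cr2, the complement receptor gene of mature B cells, at 0.08. B2m, the light chain that pairs with the Fcgrt product, was at -0.09.

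Of the genes for antibodies and their joining chain, 4 of 13 listed were measured and none passed. Ighg3 was at -0.64 and Jchain, which joins IgM and IgA into polymers, at 0.31 (limma adjusted p = 0.19 and 0.34). Ighm, the IgM heavy chain gene, was at -0.11 at its brightest probe set. Its other 2 probe sets differed from that, at 0.02 and 0.93, and none of the 3 passed (adjusted p = 0.23 to 0.86). Igha, the IgA heavy chain gene, was at 0.02 at its brighter probe set and at -0.17 at the other, and neither passed.

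Genes of the signalling pathways downstream of the receptors had medians near 0. Of 20 measured genes of activating signalling none passed, with a median of 0.002 and 11 positive and 9 negative changes. Lat2, an adaptor that is phosphorylated after ITAM receptors are engaged, stood apart in value at -0.40 (limma adjusted p = 0.19), Pik3ap1 was at 0.14 and Grb2 at -0.12. Syk, the kinase that docks on ITAMs, was at -0.03. Of 14 genes of inhibitory signalling none passed, with a median of -0.01 and 7 changes of each sign. Ptpn22, a phosphatase that restrains antigen receptor signalling, was at -0.27, Dok2 at -0.23 and Ptpn6, the phosphatase SHP-1, at -0.11 (limma adjusted p = 0.11, 0.31 and 0.36). Inpp5d, the phosphatase that Fcgr2b recruits, was at -0.03 (limma adjusted p = 0.80).

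Of 11 other receptors with inhibitory motifs or like function none passed, with a median of -0.07. Cd5, an inhibitory receptor of T cells and B-1 cells, was at -0.32, Cd72 at 0.15 and Lilrb4a at -0.15 (limma adjusted p = 0.15, 0.28 and 0.28). Groups did not overlap for 8 of the 11, 6 lower and 2 higher with FOG1, against 19.6% of all probe sets. Cd22, an inhibitory coreceptor of B cells, was at 0.01.

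Among 14 measured genes known to act on Fcer2a or on B cells that express it, none passed. The median was -0.07, with 8 negative and 6 positive changes. The list holds genes of the interleukin 4, CD40 and Notch2 pathways and, beside them, the transcription factor genes Pax5, Irf4, Irf8 and Bach2. The transcription factor gene Irf8 was at -0.25, Cd40 at -0.23 and Bach2 at 0.20 (limma adjusted p = 0.22, 0.22 and 0.27). Notch2, the receptor that directs marginal zone B cells, was at -0.21 and Il4ra, the receptor chain for interleukin 4, at -0.14. Irf4 was at 0.19 (limma adjusted p = 0.29) and Stat6 at 0.02.

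**Figure D3:**
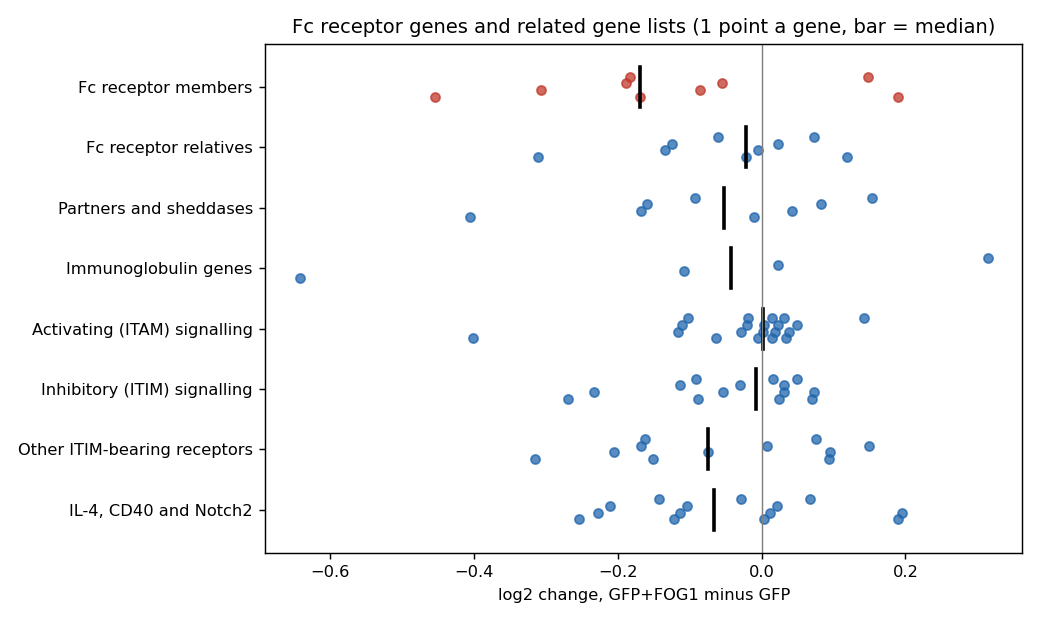
Log2 change (horizontal axis, GFP+FOG1 minus GFP) of each measured gene, 1 point a gene, for the 9 Fc receptor members (red) and 7 related lists (blue), with the list median as a black bar. The members' median is -0.17, while those of activating and inhibitory signalling are 0.002 and -0.01; vertical offsets of points carry no meaning.

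Some members lie side by side on the genome, while others, such as Fcer2a, Fcmr and Fcgr1, have no member as a direct measured neighbour. By the RefSeq table, Fcrla and Fcgr2b are direct neighbours among measured genes, and so are Fcrl1 and Fcrl5. The first pair had changes of the same sign (-0.08 and -0.17), the second of opposite sign (-0.19 and 0.15). Fcer2a, at -0.45, lay between Trappc5, a trafficking subunit gene, at -0.21 (limma adjusted p = 0.21) and the lectin gene Clec4g at -0.02. Fcmr, at -0.31, lay between Pigr, the transporter of polymeric antibodies, at 0.07 and the cytokine gene Il24 at 0.08. Fcer1g, at 0.19, lay between Apoa2 at 0.11 and Adamts4 at -0.05. None of the 14 neighbours that are not members passed, and their median was -0.02.

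**Figure D4:**
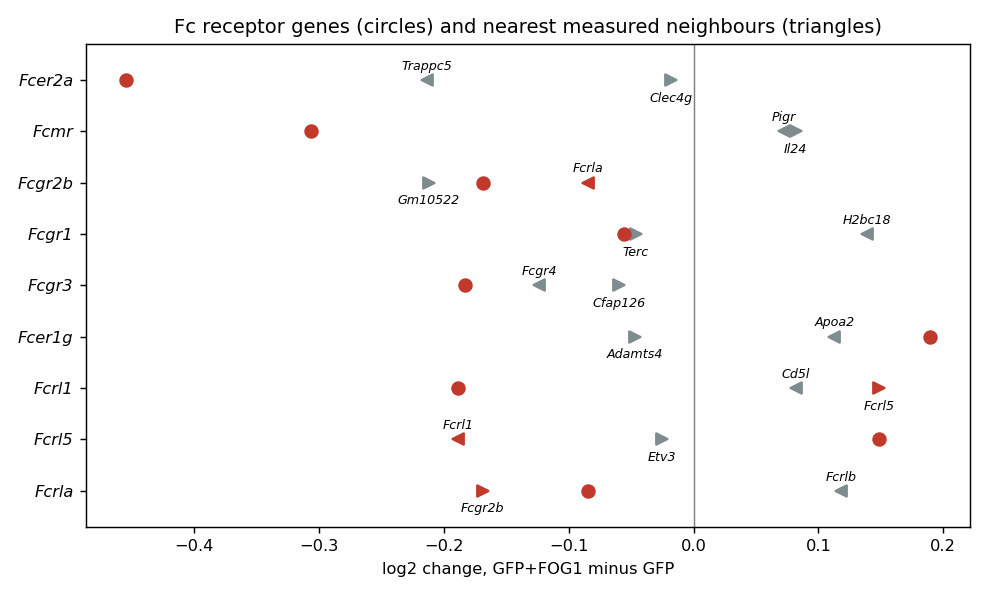
Log2 change (horizontal axis, GFP+FOG1 minus GFP) of each of the 9 genes (circles) and of its nearest measured gene at the lower (left triangle) and higher (right triangle) coordinate, red where the neighbour is itself a member. Fcmr at -0.31 lies apart from Pigr (0.07) and Il24 (0.08), and Fcrl1 (-0.19) and Fcrl5 (0.15) lie on opposite sides of 0.

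Genes whose values followed those of Fcer2a and Fcmr most closely were sought among 11502 probe sets with 1 symbol and a mean at or above the median of all values. Likeness was the root mean square difference over the 6 arrays, after each probe set was centred on its own mean. For Fcer2a the closest were Pcdh9, a protocadherin gene (0.041 log2 units), Dnase1l3, a secreted nuclease gene (0.044), and Mzb1, an endoplasmic reticulum protein gene of B and plasma cells (0.057). Pcdh9 and Dnase1l3 passed the threshold, at -0.42 and -0.53 (limma adjusted p = 0.039 and 0.048), while Mzb1 was at -0.38 (0.091). Pcdh9 has 2 probe sets with 1 symbol, and the value is that of the probe set picked by likeness to Fcer2a. The other is not reported here. For Fcmr they were Gimap6, a GTPase gene of lymphocytes (0.0095), Mtss1, a gene of membrane and actin organisation (0.030), and Ctsh, the gene of cathepsin H (0.032). These 3 had changes of -0.31, -0.34 and -0.29, and none passed. Closeness over 6 arrays in 2 groups reflects mainly a like difference between the groups, and this search was a description, with no test.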

How the data were processed

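RNA of 6 samples was amplified with a whole-transcript kit and hybridised to Affymetrix mouse gene arrays, per the labels' protocols. The deposited table holds a log2 signal for 34760 probe sets on every array, and the log2 scale was read from the range of the values. The submitters' processing notes name affy. How background was corrected, arrays normalized and probes summarised is not given in the sources used here, so a shift shared by most genes could be hidden. Precision is limited by having 3 arrays a group.

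Gene names came from the platform annotation (21640 with 1 symbol, 1321 with several, 11799 unnamed here). A RefSeq gene table changed 0 symbols through Entrez identifiers. Groups came from the sample titles. All probe sets were fitted with limma 3.58.1 in R 4.3.3 (lmFit, eBayes, no block) and adjusted by Benjamini-Hochberg. No filter was applied, and the fit was tested on simulated data. How often it recovered changes of the members' size is not reported here. The text names every member, up to 3 genes of smallest p in other lists, nearest neighbours and the 3 most alike genes of 2 members. Others were added for their known roles after values were seen. Each list gene is given at its brightest 1-symbol probe set. The members and lists were chosen with earlier results of these data known.

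Same-numbered arrays of the 2 groups had deviations that correlated at -0.07, 0.01 and -0.04, and were not treated as pairs. Alternatives were quantile normalization, median centring, leaving out dim probe sets, 1-symbol probe sets alone, a replicate block, array weights, a robust fit with a variance trend, leaving out each array, and averaging the probe sets of a gene. Figures used matplotlib 3.10.9 in Python 3.11.15.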

Additional observations from a re-analysis of the deposited data

How the results depend on the processing

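The count of member genes past the threshold, 0, was 2 (Fcer2a and Fcmr) when 1-symbol probe sets alone were fitted, which changes both the shared variance estimate and the number of probe sets adjusted over, and 1 (Fcmr) with a variance trend and robust estimation. It was 0 in the other settings run, each array left out included. The list of partner chains went from 0 to 1 gene (Cd79a) without dim probe sets, among 1-symbol probe sets and with a variance trend. The cause of these moves was not tested. The other 6 lists had 0 genes past the threshold in every setting. Over all probe sets the count of 78 was 9 with the replicate block and 17 to 38 without 1 array, where fewer samples are one reason. It stayed within 1.5 times in the other settings, some of which fitted fewer probe sets. Among the 21640 1-symbol probe sets, 102 passed when fitted alone and 41 passed in the main fit. Without dim probe sets, 94 of 17315 passed, against 78 of 34760 in the main fit. With the replicate block no member passed (Fcer2a adjusted p = 0.18, Fcmr 0.31, limma). Fcgr1, at -0.055, ranged from -0.116 to 0.0097 without 1 array and turned positive without FOG1 replicate 1, and the cause was not tested. The other 8 members kept their sign in each of their 13 or 14 alternatives, with Fcer2a at -0.50 to -0.40 and Fcmr at -0.34 to -0.28. The mean over probe sets equals the reported value because each member has 1 probe set. Dim signals limit Fcer2a, Fcgr1, Fcgr3, Fcer1g and Fcrl5, which the setting without dim probe sets leaves out. No pseudocount applies to deposited log2 values.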
